A study of Oryza sativa Japonica Group with 21 samples.

Results

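The genes described here are MSP1, TDL1A and MIL1, 3 rice genes known for setting how many sporogenous cells an anther forms and how those cells go on to meiosis. Their probe sets were found by gene symbol or synonym in the annotation of the array, not by any measured value. The genes themselves were chosen with earlier results of these data known. Of the 3 genes, 2 were found, each with 1 of the 57258 probe sets tested: MSP1 with probe set Os.23868.1.S1_at and TDL1A, which the annotation also lists as MIL2, with probe set Os.55667.1.S1_at. No probe set carried MIL1 as a symbol or synonym, and MIL1 is not analysed here.

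RNA came from rice (Oryza sativa japonica, cultivar Zhonghua 15) and was hybridised to 21 Affymetrix arrays, in 7 groups of 3 arrays that the submitters call biological replicates. The 5 stamen groups, stages 2, 3, 4, 5 and 6, were microdissected from spikelets after the stage of each panicle had been read from sections of its other half-panicle. The 2 leaf groups were the controls chosen by the authors: the primordium of the third leaf, dissected from embryos of soaked seeds, and the third leaf just after it had expanded. All groups were of this 1 cultivar, and no transgene, mutation or treatment set them apart. The labels do not give how many plants went into a sample, nor which samples were grown in chamber pots and which in the field.

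MSP1 is a leucine-rich repeat receptor kinase of the cell surface. TDL1A is a small secreted protein that binds the extracellular part of MSP1 and acts as its ligand, as TPD1 does for the receptor EMS1 in Arabidopsis. Rice plants that lack MSP1 form too many sporogenous cells in the anther and no proper tapetum, the cell layer that feeds the developing pollen. MIL1 is a plant-specific glutaredoxin that binds transcription factors of the TGA family, and germ cells of its mutant fail to enter meiosis.

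Values are log2 RMA expression values, so a difference of 1 is a 2-fold difference. Levels of different probe sets cannot be set against each other, because each hybridises with its own strength. A difference is called where the limma adjusted p is under 0.05 and the fold is at least 2, with p-values adjusted over all 57258 probe sets. In whole organs, fewer cells of a type and less RNA per cell cannot be told apart.

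Arrays of 1 group correlated at r = 0.932 to 0.995 over all probe sets, and medians of the arrays lay between 5.82 and 5.89. The labelled organs were checked against their markers. All 4 stamen identity genes, OSMADS3, OSMADS4, OSMADS16 and OSMADS58, were called higher in stamens than in either leaf group. The share of all 17905 genes so called was 15.1% with leaf primordium as the control and 26% with expanded leaf. All 7 measured green leaf genes were called higher in expanded leaf than in leaf primordium, against 19.4% of all 17905 genes. However, 2 of the 4 stamen identity genes, OSMADS16 and OSMADS58, were also called higher in expanded leaf than in leaf primordium. The share of all genes there was the 19.4% just given. OSMADS58 stood at 5.76, 6.29 and 10.04 in the 3 expanded leaf arrays. The mean level of the 4 genes was 5.33 to 5.56 in leaf primordium, 6.29 to 7.76 in expanded leaf and 10.41 to 11.12 over the stamen arrays. RMA values have no zero, so absence of a transcript cannot be read from them.

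MSP1 was far higher in stamens than in leaf primordium or expanded leaf, and it rose between the first and the last stamen stage measured. TDL1A differed little between stamens and leaf primordium, and its lowest values were those of expanded leaf. The receptor and its ligand therefore had different profiles over the 7 groups.

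**Figure D1:**
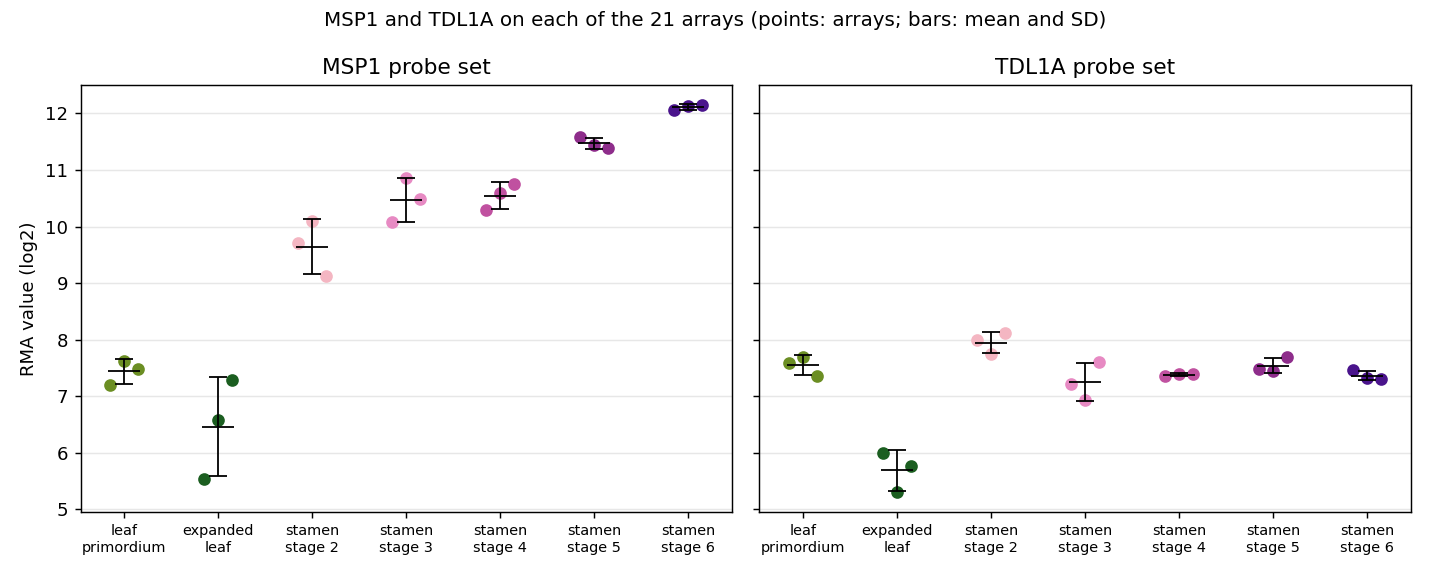
RMA expression values (log2) of MSP1 and TDL1A in each of the 21 arrays by group, with a line for each group mean. MSP1 runs from 5.53 in an expanded leaf array to 12.15 in a stage 6 array, while TDL1A stays between 6.93 and 8.11 outside expanded leaf. The heights of the points of the 2 genes are not comparable with each other.

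The receptor is described first. MSP1 stood at 7.20, 7.63 and 7.49 in leaf primordium and at 5.53, 6.58 and 7.28 in expanded leaf. In stamens it stood at 9.71, 10.09 and 9.13 at stage 2, 10.08, 10.85 and 10.48 at stage 3, and 10.29, 10.59 and 10.76 at stage 4. Its stage 5 arrays read 11.58, 11.45 and 11.38, and those of stage 6 read 12.06, 12.13 and 12.15. Every stamen array lay above every leaf array, and the stage 5 and stage 6 arrays lay above those of all earlier stages. Arrays of stage 3 overlapped with those of stage 2 and of stage 4, those of stages 2 and 4 did not overlap, and the highest expanded leaf array lay within the range of leaf primordium.

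Set against leaf primordium, MSP1 was higher in the mean of the 5 stamen stages by 3.41 (SE 0.251, 95% confidence interval 2.88 to 3.94), a 10.6-fold difference (limma, adjusted p = 7.57e-09). Of all probe sets, 7.59% were called higher in that comparison, and 99.3% had a smaller difference than MSP1. All 15 stamen arrays lay above the 3 leaf primordium arrays, in a comparison where arrays did not overlap, in either direction, for 20% of all probe sets.

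Against expanded leaf, MSP1 was higher in stamens by 4.39 (SE 0.251, 95% confidence interval 3.86 to 4.91), or 20.9-fold (limma, adjusted p = 9.42e-11). That comparison called 13.3% of all probe sets higher, and arrays did not overlap for 25.1%, MSP1 among them.

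MSP1 was called higher at every single stage as well. The difference from leaf primordium was 2.2 at stage 2 (limma, adjusted p = 4.84e-05), 3.03, 3.11 and 4.03 over the following 3 stages, and 4.67 at stage 6 (25.5-fold, limma, adjusted p = 5.6e-09). Of all probe sets, 7.83%, 7.41%, 7.37%, 8.14% and 8.16% in turn were called higher at these stages. From expanded leaf the same stages differed by 3.18, 4.01, 4.08, 5.01 and 5.65, and 12.5%, 13.2%, 13.1%, 14% and 14.4% of all probe sets were called higher. The receptor transcript thus already stood apart from both leaf groups at the earliest stage collected, and the gap at stage 6 was the widest of the 5.

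The 2 leaf groups were not called different for MSP1. Expanded leaf minus leaf primordium was -0.98 (SE 0.324, 95% confidence interval -1.66 to -0.29; limma, adjusted p = 0.0253), just under 2-fold, while 22.6% of all probe sets were called in either direction. This value rests on which arrays are taken. It was called without expanded leaf replicate 3 (-1.38), expanded leaf replicate 2 (-1.04) or leaf primordium replicate 1 (-1.09), and was -0.51 and not called without expanded leaf replicate 1. Expanded leaf replicate 3, with MSP1 at 7.28, held the highest OSMADS58 of its group, at 10.04, and its difference between 3′ and 5′ control probe sets, a sign of RNA quality, was 3.37 against 1.73 and 1.96 in the other expanded leaf arrays. The part of these in the MSP1 values of expanded leaf was not tested.

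Within the stamens, MSP1 rose by 2.47 from stage 2 to stage 6 (SE 0.324, 95% confidence interval 1.79 to 3.15), or 5.54-fold (limma, adjusted p = 7.25e-05). Only 4.4% of all probe sets were called higher in this comparison, and 99.8% had a smaller difference. The arrays of these 2 stages did not overlap for MSP1, as for 37.2% of all probe sets. The F test over the 5 stage means also called MSP1, with a range of 2.47 (F = 17.5, limma, adjusted p = 0.000538), where 7.23% of all probe sets passed.

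No single step between consecutive stages was called for MSP1. Stage 3 stood above stage 2 by 0.83 (95% confidence interval 0.14 to 1.51; limma, adjusted p = 0.222), and 1.55% of all probe sets were called in that step. Stage 4 differed from stage 3 by 0.08 (-0.61 to 0.76), stage 5 from stage 4 by 0.92 (0.24 to 1.61; limma, adjusted p = 0.61), and stage 6 from stage 5 by 0.64 (-0.04 to 1.33; limma, adjusted p = 0.887). These 3 later steps called few probe sets at all, 0.00699%, 0.0437% and 0% in turn. Arrays did not overlap between stages 4 and 5 or between stages 5 and 6, although neither difference passed. With 3 arrays in each group this is common, as for 37.2% of all probe sets between stages 2 and 6. The share for the single steps was not counted. TDL1A arrays did not overlap between stages 4 and 5 either, at a difference of 0.16.

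Steps across more than 1 stage separated the later stages from the earlier ones. MSP1 was called higher at stage 5 than at stage 2, by 1.83 (limma, adjusted p = 0.00151, with 2.6% of all probe sets called higher). It was called higher at stage 6 than at stage 3, by 1.64 (limma, adjusted p = 0.00853, with 1% called higher), and than at stage 4, by 1.57 (limma, adjusted p = 0.0143, with 0.851% called higher). Stage 4 minus stage 2 (0.90; limma, adjusted p = 0.136) and stage 5 minus stage 3 (1.00; limma, adjusted p = 0.255) did not pass. Ordered by mean, MSP1 ran from expanded leaf (6.46 ± 0.88, SD, n = 3) through leaf primordium (7.44 ± 0.22) and stages 2 (9.64 ± 0.48), 3 (10.47 ± 0.38), 4 (10.55 ± 0.24) and 5 (11.47 ± 0.10) to stage 6 (12.11 ± 0.05). Of the neighbours in that order, leaf primordium and stage 2 alone differed past the test.

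RNA quality moved with the stages. The 3′ minus 5′ difference of the actin and GAPDH control probe sets was 3.19 to 3.41 at stage 2 and 1.27 to 1.94 at stage 6, and 1.64 to 1.90 in leaf primordium. With that difference as a covariate, the MSP1 change from stage 2 to stage 6 was 3.26 and the stamen minus leaf primordium difference 3.17, both still called. The difference between stage 2 and leaf primordium was 1.45 in that fit, against 2.2 without the covariate, and was called in both. In the covariate itself, stage 2 overlapped with neither stage 6 nor leaf primordium. RNA quality and stage can therefore not be fully told apart in this fit, for MSP1 or for the genes given with the covariate below.

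**Figure D2:**
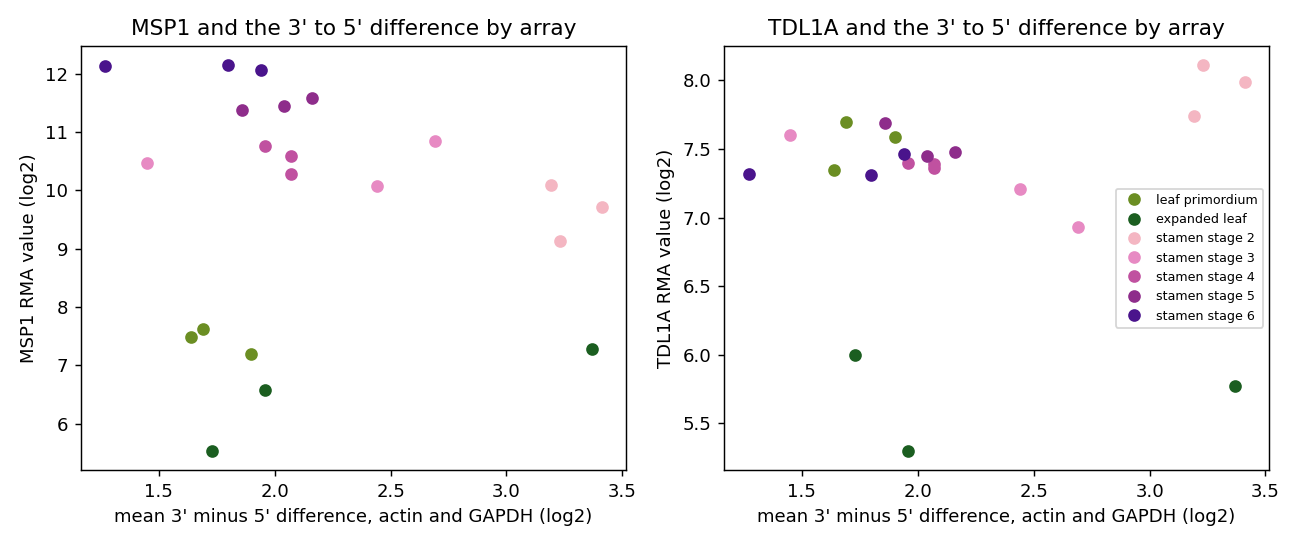
MSP1 and TDL1A values (log2) against the mean 3′ minus 5′ log2 difference of the actin and GAPDH control probe sets, 1 point for each of the 21 arrays, coloured by group. The 3 stage 2 arrays lie together between 3.19 and 3.41, and 1 expanded leaf array lies at 3.37 apart from the other 2.

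The ligand gene had a flatter profile. TDL1A stood at 7.59, 7.70 and 7.35 in leaf primordium and at 6.00, 5.30 and 5.77 in expanded leaf. In stamens it stood at 7.99, 7.74 and 8.11 at stage 2, 7.21, 6.93 and 7.60 at stage 3, and 7.36, 7.39 and 7.40 at stage 4. It stood at 7.48, 7.45 and 7.69 at stage 5 and at 7.46, 7.32 and 7.31 at stage 6. All 3 expanded leaf arrays lay below every other array. The stage 2 arrays lay above those of every other group, and the remaining stamen stages overlapped with leaf primordium. The lowest stage 2 array, at 7.74, stood just above the highest leaf primordium array, at 7.70. Stage 2 was not called different from leaf primordium or from any other stamen stage. Arrays of stages 2 and 6 did not overlap for 37.2% of all probe sets. The share with a group apart from all others was not counted.

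Between stamens and leaf primordium no difference in TDL1A was called. The stamen mean minus leaf primordium was -0.05 (SE 0.135, 95% confidence interval -0.33 to 0.24; limma, adjusted p = 0.834), an interval that holds neither a 2-fold rise nor a 2-fold fall. Either direction was called for 14.3% of all probe sets. Stage by stage, the differences from leaf primordium were 0.40 (0.03 to 0.77; limma, adjusted p = 0.107), -0.30, -0.16, 0.00 and -0.18 from stage 2 to stage 6, and none was called.

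TDL1A was lower in expanded leaf than in the other groups. It was 1.80 higher in the stamen mean (SE 0.135, 95% confidence interval 1.52 to 2.09), or 3.49-fold (limma, adjusted p = 3.76e-09). Each single stage was called higher than expanded leaf, by 2.25, 1.56, 1.69, 1.85 and 1.67 from stage 2 to stage 6. Expanded leaf minus leaf primordium was -1.85 (SE 0.174, 95% confidence interval -2.22 to -1.49), a 3.61-fold difference (limma, adjusted p = 1.25e-07), where 12.8% of all probe sets were called lower. Arrays of the 2 leaf groups did not overlap for TDL1A, as for 38.5% of all probe sets.

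Over the stamen stages TDL1A stayed under the 2-fold threshold. Its stage means had a range of 0.70 (F = 4.9, limma, adjusted p = 0.0668). Stage 6 minus stage 2 was -0.58 (95% confidence interval -0.95 to -0.22; limma, adjusted p = 0.0293) and stage 3 minus stage 2 was -0.70 (-1.07 to -0.33; limma, adjusted p = 0.0402). Both passed the p threshold but not the fold threshold, so neither was called, and 3.47% of all probe sets were called lower at stage 6 than at stage 2. The later steps were 0.14, 0.16 and -0.18, with limma adjusted p-values of 1, 0.977 and 1.

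Ordered by mean, TDL1A ran from expanded leaf (5.69 ± 0.36, SD, n = 3) to stages 3 (7.25 ± 0.33), 6 (7.36 ± 0.08) and 4 (7.38 ± 0.02), then leaf primordium (7.54 ± 0.18) and stage 5 (7.54 ± 0.13), and last stage 2 (7.95 ± 0.19). Expanded leaf was called lower than each of the 6 groups above it. No other pair of groups that was tested passed both thresholds.

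**Figure D3:**
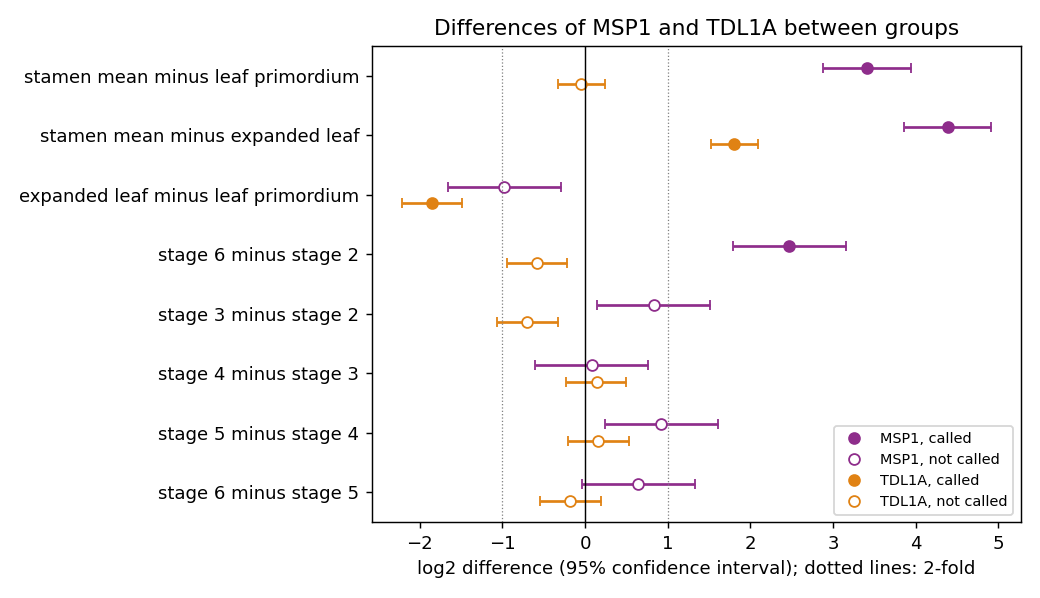
Differences of MSP1 and TDL1A between groups (log2, limma), with 95% confidence intervals; filled points were called at an adjusted p under 0.05 and at least 2-fold, and dotted lines mark 2-fold. MSP1 stands at 3.41 and TDL1A at -0.05 in stamen mean minus leaf primordium, and the 2 lie on opposite sides of 0 in stage 6 minus stage 2.

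Receptor and ligand were then compared directly, through the difference of the 2 probe sets within each array. Only changes in that difference are meaningful. MSP1 minus TDL1A was -0.39, -0.07 and 0.14 in leaf primordium, 1.72, 2.35 and 1.02 at stage 2, and 4.6, 4.81 and 4.84 at stage 6. These 3 groups did not overlap. Expanded leaf stood at -0.48, 1.29 and 1.51, a range that overlapped with those of leaf primordium and stage 2. From leaf primordium to the stamens MSP1 minus TDL1A differed by 3.46, with all 15 stamen arrays above the 3 leaf primordium arrays (exact two-sided permutation test over arrays, p = 0.00123, the smallest that 816 relabelings can give). There was 1 pair of genes, and this p was not adjusted for the other comparisons of the same pair. The test treats the 15 stamen arrays as exchangeable, although they come from 5 stages between which the difference changed.

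From stage 2 to stage 6 the difference widened by 3.05 (exact two-sided permutation test, p = 0.1, the smallest that 3 against 3 arrays can give). In limma over all 21 arrays the same change had an SE of 0.419, a 95% confidence interval of 2.17 to 3.94 and an unadjusted p of 1.37e-06. Between stages 2 and 3 it was 1.53 (95% confidence interval 0.64 to 2.41; limma, unadjusted p = 0.00205), and between stages 3 and 4 it was -0.06 (limma, unadjusted p = 0.888). The 2 later steps were 0.76 and 0.83, with unadjusted limma p-values of 0.0868 and 0.0652. For the 2 leaf groups it was 0.88 (95% confidence interval -0.01 to 1.76; limma, unadjusted p = 0.0516).

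The other known parts of the pathway were read from gene lists. Counts over lists take for each gene its probe set of highest mean, and stand beside the same counts over all 17905 genes. Of all genes, 15.1% were called higher and 12.2% lower in stamens against leaf primordium, 26% and 19.5% against expanded leaf, and 5.67% higher and 6.08% lower at stage 6 than at stage 2. Expanded leaf minus leaf primordium called 19.4% of genes higher and 24.4% lower. Medians over all genes were 0.04, 0.10, 0.02 and -0.07 in these 4 comparisons.

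In the list of MSP1, its ligands and its receptor partners, 4 of 6 symbols were measured. Beside both genes above, they were TDL1B, a relative of the ligand, and SERK1, a co-receptor kinase whose Arabidopsis counterparts act with EMS1. Of the 4, MSP1 alone was called higher in stamens when set against leaf primordium, and alone at stage 6 against stage 2, and the list medians were 0.15 and 0.22. SERK1 was not called in either (0.35 and 0.66; limma, adjusted p = 0.149 and 0.0578) but was higher in stamens than in expanded leaf by 1.40 (limma, adjusted p = 2.64e-06).

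The 2 probe sets of TDL1B disagreed. The one ending in S1_at was not called in stamens against leaf primordium (-0.15; limma, adjusted p = 0.161). The one ending in S2_at was lower in stamens than in leaf primordium by a difference of -1.52 (limma, adjusted p = 0.000351) and higher than in expanded leaf by 3.00. It stood at 8.0 in leaf primordium and 3.49 in expanded leaf, and its stage means ran from 5.79 to 7.05. Neither probe set was called from stage 2 to stage 6, with differences of -0.22 and -0.77.

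Other receptor kinases with leucine-rich repeats were measured for 5 of 16 symbols. FON1, which limits floral meristem size, was called higher in stamens than in leaf primordium by 2.18 and rose by 2.57 from stage 2 to stage 6 (limma, adjusted p = 6.07e-07). In expanded leaf, however, FON1 had a mean of 7.87, above its stamen mean of 7.21. ER2, of the ERECTA group, was not called against leaf primordium (0.29) but rose by 1.32 over the stages (limma, adjusted p = 0.000106). MSP1 was thus not the single receptor kinase of this kind to rise over the stamen stages, as 2 of the 5 listed did.

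Glutaredoxins, the family of MIL1, were measured for 18 genes of 32 symbols, and MIL1 was not among them. Against leaf primordium, 2 were called higher in stamens, 2 lower and 14 not, with a median of -0.06. GRXC6 was higher by 1.78 and GRXS3 by 1.49, while ROXY2, a relative of MIL1 in the plant-specific class, had a difference of -3.65 (limma, adjusted p = 1.11e-05). ROXY2 stood at 11.13 in leaf primordium, 4.52 in expanded leaf, 9.22 at stage 2 and 6.69 at stage 6, and its probe set may also bind close relatives. The other gene called lower was GRXS2, at -1.26, a call lost at an adjusted p under 0.01. It was also lost without leaf primordium replicate 1 (-0.97) or 2 (-0.98), and without many of the single stamen arrays.

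From stage 2 to stage 6, none of the 18 glutaredoxins was called higher and 3 were called lower: ROXY2 (-2.52; limma, adjusted p = 0.0101), GRXS1 (-2.92; limma, adjusted p = 0.0191) and GRXS10 (-1.29; limma, adjusted p = 0.0181). The GRXS10 call came from its probe set ending in S1_s_at. Its other probe sets moved little, with means of 8.94 and 6.50 at stage 2 and of 8.69 and 6.31 at stage 6. With the 3′ to 5′ covariate none of the 3 glutaredoxin calls was kept, at -1.14, -1.98 and -0.22. Single arrays also decided them. The ROXY2 call was lost without stage 6 replicate 2 (-2.17), and those of GRXS1 and GRXS10 were each lost without stage 2 replicate 1 (-2.89 and -1.22), stage 2 replicate 2 (-2.72 and -1.22), stage 6 replicate 2 (-2.39 and -1.26) or stage 6 replicate 3 (-2.19 and -1.11). GRXS1 was not called either when the fit held only the 2 stages, and its highest stage 6 array, at 9.97, lay within the stage 2 range of 9.92 to 10.78. Of the glutaredoxins, 6 were called higher in expanded leaf than in leaf primordium, among them GRXC1 by 6.73, GRXC15 by 5.16 and GRXC10 by 3.67.

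TGA factors, the family that MIL1 binds, were measured for 11 genes. Against leaf primordium, 3 of these were called higher in stamens and 2 lower, with a median of 0.15. TGAL4 stood at 5.02 in leaf primordium and 5.64 in expanded leaf, then at 7.44, 9.70, 9.70, 10.39 and 10.85 from stage 2 to stage 6. It was higher in stamens by 4.59 (limma, adjusted p = 8.54e-10) and rose by 3.41 over the stages (limma, adjusted p = 1.26e-05). TGAL11 was higher by 3.69 and rose by 2.42 (limma, adjusted p = 0.00441), a call that was lost with the 3′ to 5′ covariate, at 2.34. Both probe sets of LG2 rose from stage 2 to stage 6, by 1.59 and 2.3, without a called difference between stamens and leaf primordium.

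**Figure D4:**
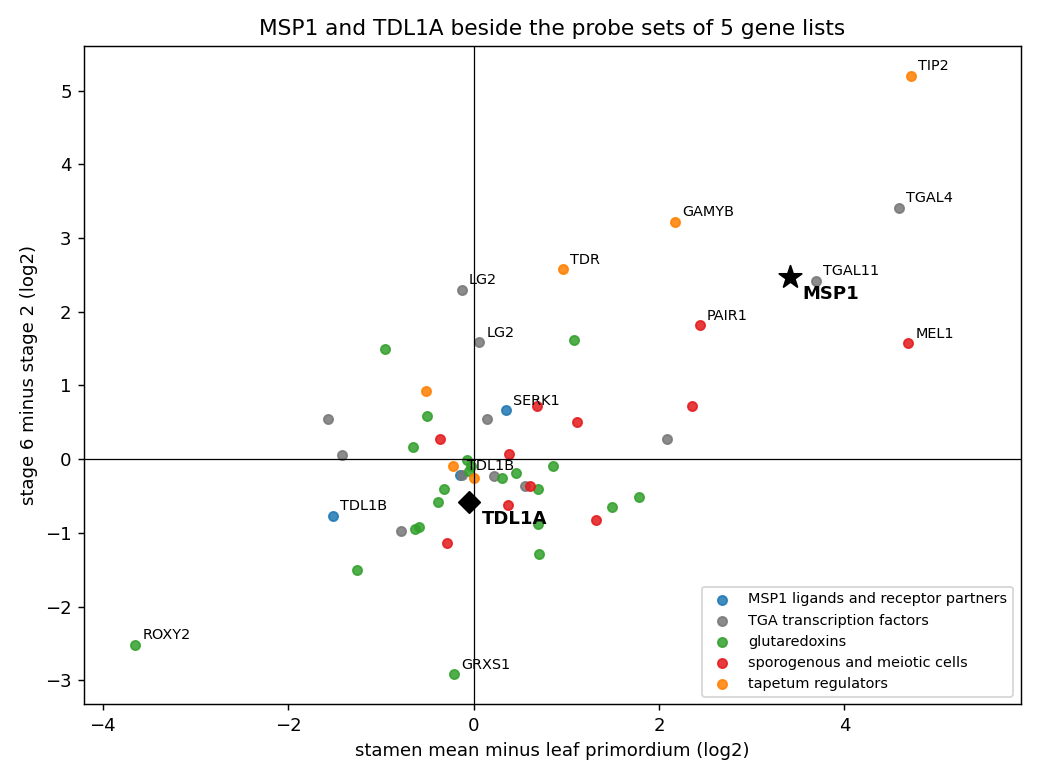
Each point is 1 probe set of 5 gene lists, placed by its stamen mean minus leaf primordium difference (horizontal, log2) and its stage 6 minus stage 2 difference (vertical, log2); the star is MSP1 and the diamond TDL1A. MSP1 lies at 3.41 and 2.47, near TGAL11 at 3.69 and 2.42, while TDL1A lies at -0.05 and -0.58 among probe sets near the origin.

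The cell types that the pathway acts on were read from their own lists. In the list of sporogenous and meiotic cells, 5 of 8 genes were called higher in stamens than in leaf primordium (median 1.22), against 15.1% of all genes. Against expanded leaf it was 7 of 8 (median 2.53), with 26% of all genes. Some of these calls hung on single arrays. PAIR2 against leaf primordium was lost without leaf primordium replicate 1 (0.86). Against expanded leaf, MER3 was lost at an adjusted p under 0.01 and without expanded leaf replicate 1 (0.62) or 2 (0.97), and HEI10 without replicate 3. MEL1, an Argonaute protein of germ cells, was higher than in leaf primordium by 4.69, and PAIR1, needed for chromosome pairing at meiosis, by 2.44. From stage 2 to stage 6, MEL1 (1.57) and PAIR1 (1.82) were called higher and SDS (-1.14) lower. None of the 3 calls was kept with the 3′ to 5′ covariate, where the differences were 1.5, 1.17 and -1.07. The SDS call is that of its probe set of highest mean. Its other probe set stood at 4.97 at stage 2 and at 4.35 at stage 6, under the 2-fold threshold. The mean level of the 8 genes was 7.72 to 8.04 at stage 2 and 8.16 to 8.26 at stage 6.

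Of 6 measured tapetum regulators, 3 were called higher at stage 6 than at stage 2, against 5.67% of all genes, with a list median of 1.76. These were the bHLH factors TIP2 by 5.20 and TDR by 2.58 and the MYB factor GAMYB by 3.22. The other 3 were not called: EAT1 went from 3.83 to 3.57, PTC1 from 3.29 to 3.19 and API5 from 10.92 to 11.85. The mean of the 6 regulators was 5.40 to 5.79 at stage 2 and 7.40 to 7.60 at stage 6. It moved over the same stages as MSP1, mostly through the 3 called genes. The list of 5 tapetum markers, which shares TDR and EAT1 with the regulators, had a mean of 4.57 to 4.63 at stage 2 and 4.74 to 4.88 at stage 6. Of these 5, TDR was called higher at stage 6, CP1 was called lower (-1.05; limma, adjusted p = 9.07e-06), 3 were not called, and the median difference was -0.26. The CP1 call was lost with the 3′ to 5′ covariate, at -0.95. None of the 3 carpel and ovule genes was called in these comparisons, and their mean was 6.08 to 6.26 at stage 2 and 5.77 to 6.24 at stage 6. The 2 meristem genes went opposite ways over the stages: FON1 rose, as given above, and OSH1 fell by 4.35 from 8.62 at stage 2 to 4.27 at stage 6 (limma, adjusted p = 0.000566), a call lost with the covariate, at -1.87. OSH1 varied within stage 3, at 6.01, 8.61 and 4.06 by its probe set ending in S1_at, where MSP1 was 10.08, 10.85 and 10.48. The part of cell type makeup in the MSP1 values was not tested.

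Other genes with a like profile were sought among 1344 probe sets that had a named gene and a range of at least 2 over the 7 group means. Likeness was Pearson's r over those 7 means, which share the same arrays, and is given as a description. For MSP1 the 5 closest were CSLD2, a cellulose synthase-like gene (r = 0.996), HATB (0.995), ARF14, an auxin response factor (0.993), CYCP2-1, a P-type cyclin (0.992) and SLP16 (0.991). Over the 21 single arrays HATB was the closest, at 0.973, ARF14, CYCP2-1 and SLP16 ranked 9, 12 and 45 of the 1344, and CSLD2 ranked 71 at 0.913. High r was common: 69 of the 1344 probe sets reached 0.95 with MSP1.

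For TDL1A the 5 closest were CSLA1 (r = 0.983), OsPP2C11, a protein phosphatase (0.973), grf3 (0.969), GH3-8, an enzyme that conjugates auxin (0.968) and NEK1, a protein kinase (0.967). CSLA1 was also the closest over the 21 arrays, at 0.921, and NEK1 and grf3 ranked 2 and 6, but GH3-8 ranked 112 at 0.818 and OsPP2C11 125 at 0.808. Fewer probe sets, 18 of 1344, reached 0.95 with TDL1A.

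**Figure D5:**
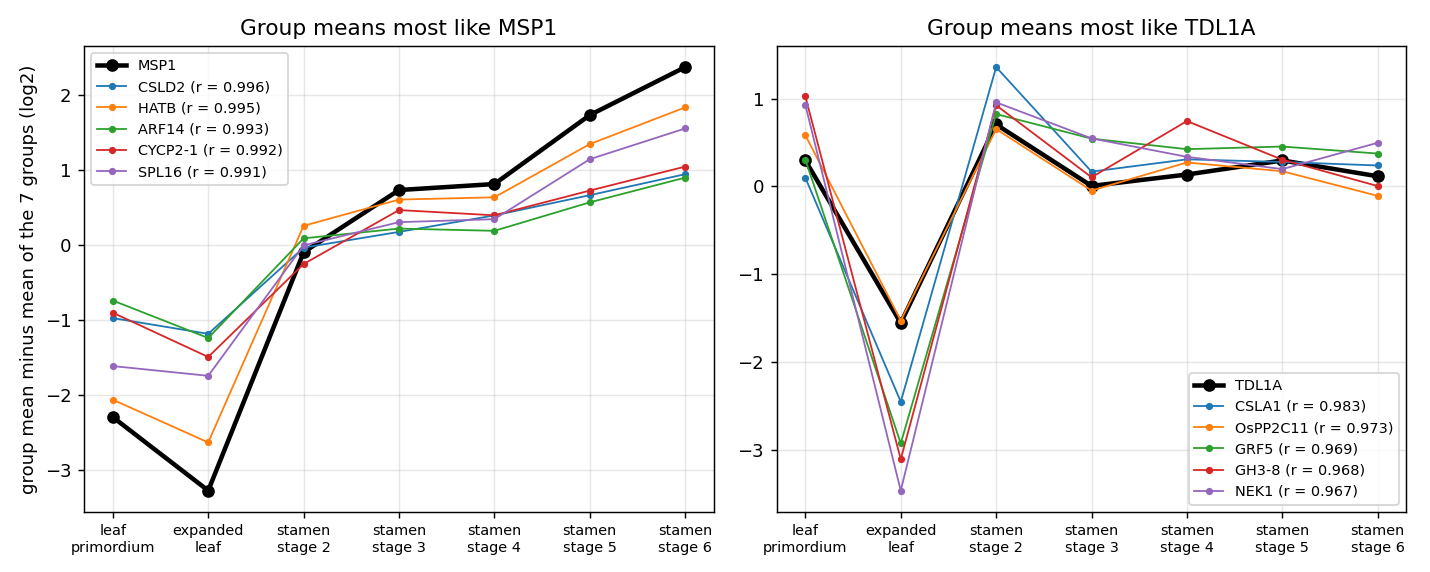
Group means (log2, each gene centred on the mean of its 7 groups) of MSP1 and TDL1A and of the 5 genes closest to each by Pearson's r over the 7 groups; SPL16 in the key is SLP16, and GRF5 is grf3. Around MSP1 the lines climb from both leaf groups to stage 6, and around TDL1A they dip in expanded leaf and peak at stage 2 in most genes.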

How the data were processed

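Expression was measured on 21 Affymetrix arrays from RNA amplified through 2 cycles, per the labels' protocols. Values are on the log2 scale, as the authors deposited them after RMA summary by probe set, per the submitters' processing notes. A version of RMA was not given in the sources used here. RMA sets the arrays to a common scale, so values are relative to the other transcripts. Of 57381 probe sets, 123 controls were left out. In the array annotation 22436 probe sets had 1 gene, 95 had more than 1 and 34727 had no entry, and names were updated through assembly ASM3414082v1, from which no positions are used.

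One limma model (limma 3.58.1, R 4.3.3) with 7 group means was fitted to all arrays, with Benjamini-Hochberg adjustment over 57258 probe sets, and was tested on simulated data. Single-comparison tests were two-sided. Genes were named by a rule: the members, any measured gene of the lists, and the 5 genes closest to each member. The members and lists were chosen with earlier results of these data known. Of the list symbols, TIP2, ZIP4, ZEP1, SPL and CP1 also name unrelated genes, which were dropped. Alternatives were other scalings, filters, variance priors, array weights, a replicate block, thresholds, the 3′ to 5′ covariate and leaving out arrays or groups. The 3′ to 5′ covariate is the mean difference of the actin and GAPDH control probe sets. The number of arrays limits the precision, and p-values measure the spread between these arrays.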

Additional observations from a re-analysis of the deposited data

How the results depend on the processing

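Of 1230 alternative values for MSP1 and TDL1A, 1217 kept the direction and the call. Many of them could not move the difference itself, so this count overstates how far the results were tried. Leaving out an array of neither compared group, the replicate block and the variance prior are of that kind. For MSP1, expanded leaf minus leaf primordium became called with array weights (-1.36), with the 3′ to 5′ covariate (-1.28) and with no fold threshold (-0.98), and leaving out 1 array gave -1.38 to -0.51, called without leaf primordium replicate 1 (-1.09), expanded leaf replicate 2 (-1.04) or expanded leaf replicate 3 (-1.38). With no fold threshold, TDL1A was called for stage 6 minus stage 2 (-0.58) and stage 3 minus stage 2 (-0.70). Differences near 0 changed sign without a call: TDL1A in stamens minus leaf primordium with the covariate (0.01) and without leaf primordium replicate 2 (0.03; range -0.15 to 0.03); MSP1 in stage 4 minus stage 3 without stage 3 replicate 1 (-0.12) or stage 4 replicate 3 (-0.03; range -0.12 to 0.26); TDL1A in the same step without stage 3 replicate 2 (-0.02; range -0.02 to 0.31). Leaving out single arrays gave 3.29 to 3.50 for MSP1 in stamens minus leaf primordium and 2.21 to 2.69 in stage 6 minus stage 2, all called. The MSP1 minus TDL1A change from stage 2 to stage 6 was 3.05 in limma, where it passed the threshold that 3 against 3 arrays cannot reach by permutation. Counts of called probe sets moved by over 1.5 times with no fold threshold, from 8189 to 18201 (stamens minus leaf primordium), 13331 to 27843 (stamens minus expanded leaf), 12959 to 20116 (expanded leaf minus leaf primordium), 4505 to 9018 (stage 6 minus stage 2) and 4139 to 6294 (over the stages). The covariate gave 2797 for stage 6 minus stage 2 and 2124 over the stages, array weights 6408 over the stages and an adjusted p under 0.01 gave 2567. The cause of the shifts with the covariate and the weights was not tested. No pairing by replicate number was seen, though these values cannot settle whether samples were paired. Across groups, same-numbered arrays deviated together at r = -0.43 to 0.48 (median 0.02), and arrays of other numbers at -0.51 to 0.47 (median -0.01). Of 21 arrays, 9 correlated best with their own number. The replicate block left MSP1 at 3.41 in stamens minus leaf primordium, where 8190 probe sets were called. It changed no call of either gene. Each gene had 1 probe set, so a mean over probe sets was not run.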
